A study of Rattus norvegicus with 8 samples.

Results

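The 10 transcription factors described here steer cells along the oligodendrocyte lineage. Myrf, Sox10, Nkx2-2, Nkx6-2, Olig1 and Olig2 are counted as activators of differentiation, and Sox4, Sox11, Id2 and Id4 as inhibitors. A gene was included where a probe set of the array has it as its single gene symbol. All 10 were measured, each by 1 probe set, among 15037 genes with a symbol and 23188 probe sets in all.

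RNA came from primary oligodendrocyte progenitor cell (OPC) cultures of Sprague Dawley rat brain, made from mixed-sex pups at postnatal day 1 to 2. The 4 IL-4 cultures received 20 ng/mL IL-4 for 3 d and the 4 PBS cultures received PBS for the same time, and each sample had an Affymetrix Clariom S rat array of its own. Per the methods, OPCs were kept in serum-free defined medium with the growth factors PDGF and bFGF. Whether these factors were present during the IL-4 or PBS treatment is not stated. The flasks had first been shaken to free them of microglia. The methods call the 4 samples of each condition biologic replicates, and whether they came from separate litters is not given in the sources used here, so p-values measure the spread between these samples, which may be partly technical. The IL-4 arrays lay close together, with a median absolute log2 difference of 0.14 to 0.16 between 2 of them, against 0.21 to 0.26 between 2 PBS arrays. The comparison asks how IL-4 changed the expression of the genes that push OPCs towards myelin formation or hold them back.

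OPCs divide and migrate, and then leave the cell cycle to become oligodendrocytes that wrap axons in myelin. Olig2 and Sox10 mark the lineage throughout, and Sox10 switches on Myrf, which then binds enhancers of myelin genes together with Sox10. Id proteins hold the process back by pairing with basic helix-loop-helix (bHLH) factors and their E protein partners, since they lack the basic region that contacts DNA. Sox4 and Sox11 are found in immature cells of several lineages, and in mice prolonged Sox4 in oligodendrocytes hinders myelination.

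The promoters of Sox11 and Id2, which rose with IL-4, and of Nkx2-2, which fell, are shown to set their letters beside those changes. Sequences are those of RefSeq for the GRCr8 build, from 250 bases before to 50 bases after each gene's start, and 6 of the 10 genes were matched. Id2 lies on the minus strand at chr6:47470946-47471245, Sox11 on the minus strand at chr6:49738745-49739044, and Nkx2-2 on the minus strand at chr3:155075573-155075872. Capitals mark the matches of 5 motifs, searched on both strands and spelled out after the sequences.
Sox11: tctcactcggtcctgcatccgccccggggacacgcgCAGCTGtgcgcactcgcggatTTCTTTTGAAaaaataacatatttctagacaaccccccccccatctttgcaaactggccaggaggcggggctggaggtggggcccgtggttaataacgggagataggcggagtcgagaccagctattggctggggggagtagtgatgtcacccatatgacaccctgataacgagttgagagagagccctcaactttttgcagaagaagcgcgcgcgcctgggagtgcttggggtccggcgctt
Id2: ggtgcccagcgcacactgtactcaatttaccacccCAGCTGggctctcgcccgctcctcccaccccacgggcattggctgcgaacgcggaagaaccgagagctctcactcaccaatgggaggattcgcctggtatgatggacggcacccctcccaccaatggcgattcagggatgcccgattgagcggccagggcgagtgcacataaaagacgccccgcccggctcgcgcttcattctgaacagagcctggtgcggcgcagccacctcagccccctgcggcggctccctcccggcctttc
Nkx2-2: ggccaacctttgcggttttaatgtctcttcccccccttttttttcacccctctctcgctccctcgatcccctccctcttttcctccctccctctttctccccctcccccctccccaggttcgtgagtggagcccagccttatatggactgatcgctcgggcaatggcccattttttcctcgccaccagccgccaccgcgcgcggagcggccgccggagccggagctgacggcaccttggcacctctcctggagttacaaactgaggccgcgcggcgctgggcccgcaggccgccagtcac
The E-box CAGCTG, a sequence bound by bHLH factors, starts 214 bases before the start of Sox11 and 215 bases before that of Id2. It is in 15.1% of all 33469 promoters of this length. The STAT6 motif, TTC and GAA with 4 bases of any kind between them, is named for the factor that IL-4 activates. It starts 193 bases before the start of Sox11 and is in 7.28% of all promoters. It was in the promoter of 1 of the 6 matched genes. The general STAT motif, with 3 bases between TTC and GAA (8.87% of all promoters) and the Sox motif ACAAAG (18.8%) were in 0 of the 6. GGCGCC, a motif of BMP-responsive promoters (11.0%), was in those of Olig2 and Id4. The Nkx2-2 and Nkx6-2 promoters held none of the 5 motifs. All but ACAAAG read the same on both strands, and no 2 matches overlapped. These matches are descriptions of the letters only.

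With IL-4, 3 of the 6 activators (Myrf, Sox10 and Nkx2-2) fell and 3 of the 4 inhibitors (Sox4, Sox11 and Id2) rose. Nkx6-2, Olig1, Olig2 and Id4 did not pass. A gene is said to rise or fall at an adjusted p under 0.05 from limma, with IL-4 minus PBS fitted over all 23188 probe sets and p adjusted by the Benjamini-Hochberg method. At this threshold 12% of all probe sets were higher with IL-4 and 19.7% were lower, 31.6% in either direction, against 6 of the 10 genes here. In numbers, 2776 probe sets rose and 4563 fell, and after quantile normalization 3279 rose and 3582 fell. The median log2 difference was -0.24 over the 6 activators and 0.77 over the 4 inhibitors, and -0.068 over all probe sets. With a change of more than 2-fold asked for as well, Sox4 and Id2 remained, both higher, where 2.16% of all probe sets did and another 2.34% were lower by as much, 4.5% in all. With the IL-4 arrays averaged to 1 sample, only Sox4 passed. Values are levels of RNA in whole cultures, so fewer cells of a type and less RNA per cell cannot be told apart.

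**Figure D1:**
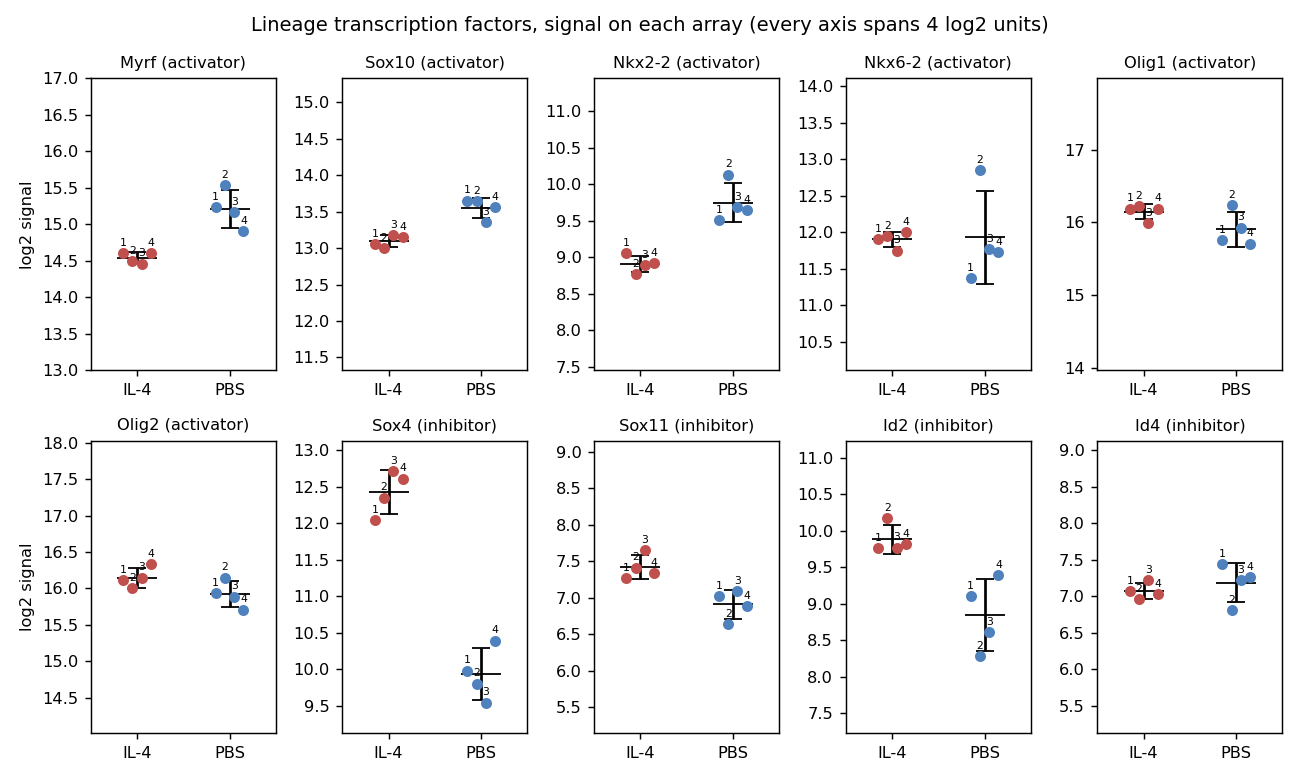
Log2 signal of each of the 10 transcription factors on the 4 IL-4 arrays (red) and the 4 PBS arrays (blue), with array numbers beside the points. Horizontal bars are means and vertical bars SD (n = 4). The groups do not overlap for Myrf, Sox10, Nkx2-2, Sox4, Sox11 and Id2.

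Sox4, a SoxC factor of immature cells, had the largest log2 difference of the 10. Its log2 signal was 12.04, 12.35, 12.71 and 12.61 on the IL-4 arrays, against 9.98, 9.80, 9.54 and 10.39 on the PBS arrays. The lowest IL-4 array stood 1.65 above the highest PBS array, PBS 4. The means were 12.43 ± 0.30 with IL-4 and 9.93 ± 0.36 with PBS (SD, n = 4 each). This is a log2 difference of 2.50 (limma, standard error 0.20, adjusted p = 2.4e-05) or 5.66-fold. No alternative processing ended this call, and the log2 difference lay between 2.37 and 2.76 over the 18 tried.

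Sox11, the close relative of Sox4 in the SoxC group, also rose. It was at 7.27, 7.41, 7.65 and 7.34 on the IL-4 arrays, against 7.02, 6.64, 7.09 and 6.88 on the PBS arrays. The groups did not overlap, with a gap of 0.18 between the lowest IL-4 and the highest PBS array. The log2 difference was 0.51 (standard error 0.13, adjusted p = 0.016), a 1.42-fold change. Within each array the log2 signal of Sox4 minus that of Sox11 was 4.77 to 5.27 with IL-4 and 2.45 to 3.51 with PBS. This difference, which is free of any shift common to an array, was 1.99 larger with IL-4 (exact permutation test over 70 labellings, two-sided, p = 0.029, the smallest they allow, adjusted p = 0.048 over 5 pairs of relatives). The size of such a difference within an array cannot be read across probe sets. Unequal response of 2 probe sets to a change was not tested, here or in the other pairs. The third SoxC gene, Sox12, had a log2 difference of 0.17 and did not pass the test (adjusted p = 0.44).

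Id2, an inhibitor of bHLH factors, also rose. Its log2 signal was 9.76, 10.18, 9.77 and 9.82 on the IL-4 arrays, against 9.11, 8.28, 8.61 and 9.39 on the PBS arrays. All IL-4 arrays lay above all PBS arrays, and among the PBS arrays Id2 was lowest on PBS 2 and highest on PBS 4. The means were 9.88 ± 0.20 with IL-4 and 8.85 ± 0.50 with PBS (SD, n = 4 each). They differed on the log2 scale by 1.03 (limma, standard error 0.22, adjusted p = 0.0056). At 2.05-fold the change was close to the 2-fold threshold, and it was under it without PBS 2, without PBS 3 or without IL-4 2, with log2 differences of 0.85, 0.96 and 0.94.

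Id4, which in rat OPC cultures is known to delay differentiation, did not follow Id2. It was at 7.07, 6.96, 7.22 and 7.03 on the IL-4 arrays, against 7.44, 6.81, 7.22 and 7.26 on the PBS arrays. The IL-4 arrays lay within the range of the PBS arrays, with a log2 difference of -0.11 (95% confidence interval -0.43 to 0.20, adjusted p = 0.58). Id2 minus Id4 was 2.55 to 3.22 with IL-4 and 1.39 to 2.13 with PBS, so the change of Id2 exceeded that of Id4 by 1.15 (exact permutation test, two-sided, p = 0.029, adjusted p = 0.048 over the 5 pairs). Of the remaining Id genes, Id1 rose by a log2 difference of 0.76 (adjusted p = 0.0070), while Id3 had one of 0.43 (adjusted p = 0.11).

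**Figure D2:**
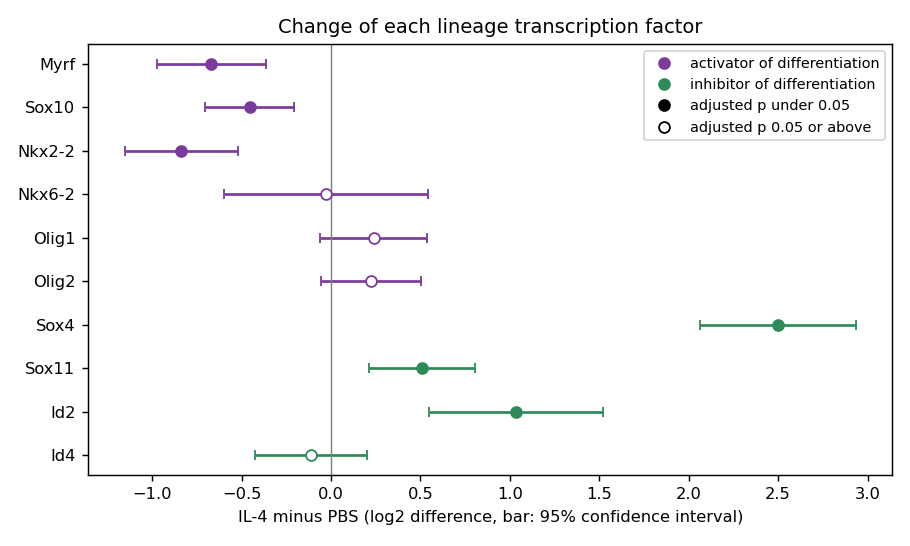
Log2 difference, IL-4 minus PBS, of each transcription factor with its 95% confidence interval from limma (n = 4 arrays per group). Myrf, Sox10 and Nkx2-2 lie below 0, Sox4, Sox11 and Id2 above it, and the intervals of the other 4 include 0.

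Among the activators, Nkx2-2 had the largest fall. This homeodomain repressor promotes differentiation, in mice partly by lowering Pdgfra. It was at 9.05, 8.77, 8.89 and 8.92 on the IL-4 arrays, against 9.51, 10.13, 9.69 and 9.65 on the PBS arrays. The highest IL-4 array was 0.46 below the lowest PBS array. The log2 difference was -0.84 (standard error 0.14, adjusted p = 0.0019), and the signal was 1.79 times as high in PBS cultures. Pdgfra, the PDGF receptor of OPCs, chosen here after its values were seen, was at 14.03 to 14.09 on the IL-4 arrays and 12.73 to 15.07 on the PBS arrays. Its log2 difference was 0.05 (95% confidence interval -0.77 to 0.87, adjusted p = 0.93). Its lowest PBS value was on PBS 2, which held the highest PBS value of 5 of the 6 activators, Nkx2-2 among them. A link between Nkx2-2 and Pdgfra was not tested.

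Nkx6-2, a homeodomain factor of maturing oligodendrocytes, had the widest spread of the 10 among the PBS arrays. It was at 11.91, 11.95, 11.75 and 12 on the IL-4 arrays, against 11.37, 12.85, 11.77 and 11.73 on the PBS arrays. The PBS arrays thus spanned 1.48 and the IL-4 arrays 0.25, all of it within the PBS range. The log2 difference was -0.028 (95% confidence interval -0.60 to 0.54, adjusted p = 0.95), and it was 0.28 without PBS 2. Nkx2-2 minus Nkx6-2 was -3.18 to -2.86 with IL-4 and -2.72 to -1.86 with PBS, so Nkx2-2 fell relative to Nkx6-2 by 0.81 (exact permutation test, two-sided, p = 0.029, adjusted p = 0.048 over the 5 pairs).

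Myrf, the membrane-bound factor that is cleaved to enter the nucleus and drive myelin genes, fell. It was at 14.61, 14.50, 14.46 and 14.61 on the IL-4 arrays, against 15.24, 15.54, 15.17 and 14.91 on the PBS arrays. The groups were separated by 0.30, with PBS 4 the nearest to the IL-4 arrays. The means were 14.55 ± 0.077 with IL-4 and 15.22 ± 0.26 with PBS (SD, n = 4 each). The difference was -0.67 (limma, standard error 0.14, adjusted p = 0.0048).

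Sox10, the factor that acts with Myrf, also fell. It was at 13.05, 13.00, 13.18 and 13.15 on the IL-4 arrays, against 13.65, 13.64, 13.35 and 13.56 on the PBS arrays. All IL-4 arrays lay below all PBS arrays, by at least 0.17. The log2 difference was -0.46 (standard error 0.11, adjusted p = 0.011). This call was lost after quantile normalization (-0.32, adjusted p = 0.052) and without PBS 1 and PBS 4 together (-0.40, adjusted p = 0.051). Myrf minus Sox10 was 1.28 to 1.56 with IL-4 and 1.35 to 1.90 with PBS, and the difference of -0.22 between the groups did not pass (exact permutation test, two-sided, p = 0.20, adjusted p = 0.25 over the 5 pairs). Sox8, the SoxE relative of Sox10, had a log2 difference of -0.06 (95% confidence interval -0.43 to 0.31).

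Olig1 and Olig2, bHLH factors encoded on chromosome 11, did not pass the test. Olig1, which is known for its part in maturation and repair, was at 16.19, 16.22, 15.99 and 16.19 on the IL-4 arrays, against 15.76, 16.24, 15.93 and 15.71 on the PBS arrays. Olig2, which specifies the lineage, was at 16.11, 16.00, 16.15 and 16.33 on the IL-4 arrays, against 15.94, 16.15, 15.89 and 15.71 on the PBS arrays. For both genes the groups overlapped through PBS 2. The log2 differences were 0.24 for Olig1 (95% confidence interval -0.062 to 0.54, adjusted p = 0.21) and 0.22 for Olig2 (-0.055 to 0.50, adjusted p = 0.20). Without PBS 2, Olig1 passed the test with a log2 difference of 0.35 (adjusted p = 0.047), and Olig2 had one of 0.30 and did not. Olig1 minus Olig2 changed by 0.013 between the groups (exact permutation test, two-sided, p = 0.86, adjusted p = 0.86 over the 5 pairs).

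The arrays of the 2 groups did not overlap for 6 of the 10 genes, 3 higher and 3 lower with IL-4. Over all probe sets 32.8% did not overlap, 12.2% with IL-4 higher and 20.6% with it lower. The genes varied less among the IL-4 arrays: the SD was smaller there for all 10 genes, with a median of 0.11 with IL-4 and 0.26 with PBS. Over all probe sets the medians were 0.15 with IL-4 and 0.22 with PBS, and 67.6% had the larger SD with PBS.

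Much of the spread among the PBS cultures lay on PBS 2. It held the highest PBS value of 5 of the 6 activators, all but Sox10, which was 0.01 higher on PBS 1. It also held the lowest PBS value of Sox11, Id2 and Id4. PBS 4 held the lowest PBS value of Myrf, Olig1 and Olig2 and the highest of Sox4 and Id2. Taken as the mean deviation from the PBS means, the inhibitors stood at 0.82 to 1.12 on the IL-4 arrays, against -0.33 on PBS 2 and 0.26 on PBS 4. The activators stood at -0.31 to -0.18 on the IL-4 arrays, against 0.38 on PBS 2 and -0.17 to -0.079 on the other PBS arrays. As a description over the 8 arrays, which include the change between groups, Myrf correlated at r = 0.95 with Nkx2-2, at r = -0.95 with Id2 and at r = 0.0007 with Id4. Id4 correlated at r = -0.91 with Nkx6-2 and r = -0.89 with Olig1, and in none of these 3 genes did the groups separate.

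**Figure D3:**
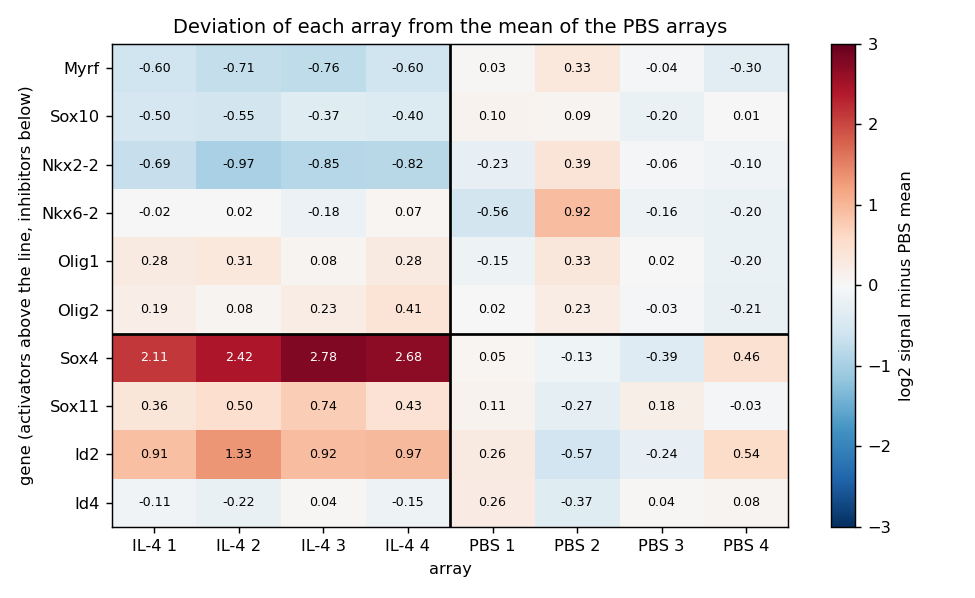
Log2 signal of each gene on each array minus the mean of the 4 PBS arrays. Columns are arrays and rows are genes, with activators above the horizontal line and inhibitors below it. Sox4 reaches 2.11 to 2.78 on the IL-4 arrays, and PBS 2 stands at 0.92 for Nkx6-2 and -0.57 for Id2.

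Genes that Myrf and Sox10 are known to activate, or that belong to the myelin programme they drive, moved both ways. Of 19 measured, 8 rose, 3 fell and the remaining 8 passed in neither direction, with a median log2 difference of 0.21. Over all probe sets 12% rose and 19.7% fell. Mal, a proteolipid of mature myelin, was at 10.85, 11.04, 10.85 and 10.99 on the IL-4 arrays, against 4.99, 9.30, 7.37 and 8.83 on the PBS arrays. It was higher on every IL-4 array, with a log2 difference of 3.31 (adjusted p = 0.0065), or 9.92-fold. Without PBS 1, where Mal was in the range of dim signal, the log2 difference was 2.43 (adjusted p = 0.0019), or 5.40-fold. Ermn, a cytoskeletal protein of late oligodendrocytes, had a log2 difference of 2.42 (adjusted p = 0.0038). Gjb1, a gap junction protein of oligodendrocytes, had one of 1.67 (adjusted p = 0.0063). Both were smaller without PBS 1, at 1.87 for Ermn (adjusted p = 0.0017) and 1.285 for Gjb1 (adjusted p = 0.0066). The adhesion protein gene Ninj2 fell (-1.13, adjusted p = 8.5e-04), as did Rffl (-0.99, adjusted p = 0.0010) and Tmem98 (-0.79, adjusted p = 0.0095). Rffl and Tmem98, named to complete the count of those that fell, were chosen after their values were seen. Tmem98 encodes a protein known to bind Myrf and hinder its cleavage. Mbp, the myelin basic protein, also chosen after its values were seen, rose with a log2 difference of 0.37 (adjusted p = 0.018). It was at 19.81 to 19.82 on the IL-4 arrays and 19.30 to 19.53 on the PBS arrays. These values lie near the highest signal of any probe set (19.92 to 19.93 with IL-4 and 19.81 to 19.82 with PBS).

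The mean signal of these 19 genes was 14.35 to 14.45 on the IL-4 arrays, against 13.57, 14.50, 14.05 and 13.95 on PBS 1 to 4. PBS 2 alone of the PBS arrays thus exceeded the IL-4 arrays in this mean. That small excess rests on Opalin, at 14.68 on PBS 2 against 12.51 to 12.74 on the IL-4 arrays. In Myrf every PBS array exceeded the IL-4 arrays, at 14.91 to 15.54 against 14.46 to 14.61 with IL-4. On PBS 1, Myrf was 15.24 while the target mean was the lowest of all 8 arrays. Sox10 was highest on PBS 1 and PBS 2, which had the lowest and the highest target means of the 8.

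**Figure D4:**
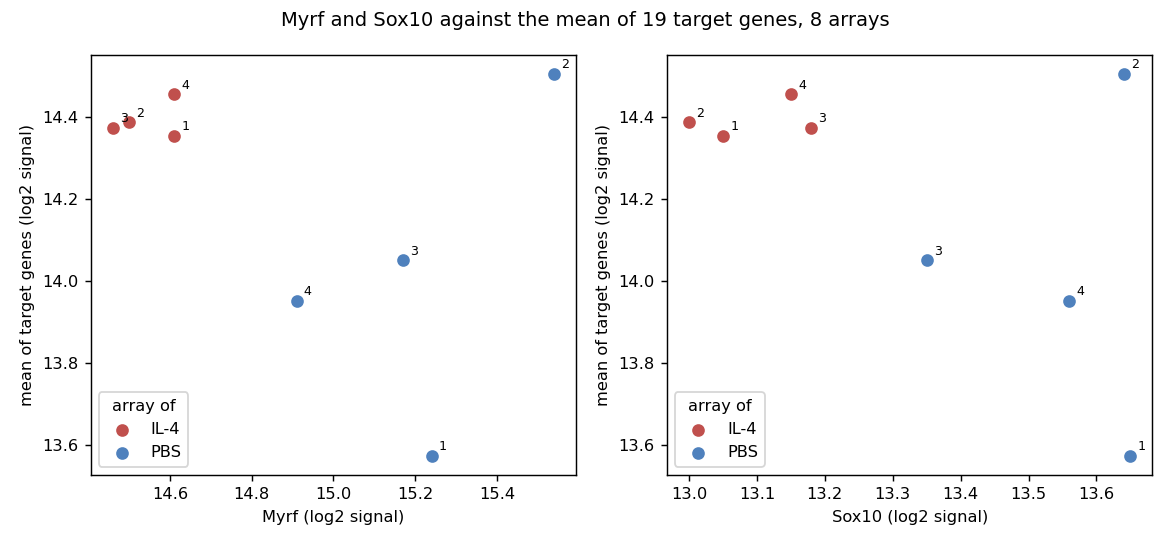
Mean log2 signal of 19 target genes (vertical axis) against the log2 signal of Myrf (left) and Sox10 (right) on the 4 IL-4 arrays (red) and 4 PBS arrays (blue), with array numbers. The IL-4 arrays combine low Myrf (14.46 to 14.61) with target means of 14.35 to 14.45, which among the PBS arrays only PBS 2 exceeds. The excess of PBS 2 rests on Opalin.

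Other regulators of the lineage gave mixed counts, to be read beside the 12% of all probe sets that rose and the 19.7% that fell. Of 28 further activators measured, 1 rose, 6 fell and 21 passed in neither direction (median log2 difference -0.095). Klf6, a zinc finger factor needed for oligodendrocyte maturation in mice, rose by 0.66 (adjusted p = 0.0038). Sox17 had a log2 difference of -0.83, the zinc finger factor St18 one of -0.79 and Klf13 one of -0.71, although Sox17 was at 4.39 with IL-4 and 5.22 with PBS, under the 95th percentile of olfactory receptor genes (5.41), so its size cannot be read exactly. Of 22 further inhibitors, 4 rose, 3 fell and 15 did not pass (median 0.04). Besides Id1, the immediate early gene Egr1 had a log2 difference of 1.06 (adjusted p = 0.023), Lef1, a Wnt effector, one of -0.86 (adjusted p = 0.0064, at 4.76 with IL-4 and 5.63 with PBS) and Zfp281 one of -0.85 (adjusted p = 4.8e-04). The Egr1 call was lost without IL-4 3 (adjusted p = 0.061) or IL-4 4 (adjusted p = 0.052). Without PBS 4 the call held, but the log2 difference of Egr1 was 0.68 (adjusted p = 0.0046).

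Of the 3 E proteins that pair with Olig factors and are bound by Id proteins, Tcf4 and Tcf12 rose by small amounts. Tcf4 had a log2 difference of 0.35 (adjusted p = 0.035) and Tcf12 one of 0.30 (adjusted p = 0.046), while Tcf3 did not pass. The Tcf4 call was lost without PBS 1, without PBS 2 or without any 1 IL-4 array (adjusted p = 0.058 to 0.087). The Tcf12 call was lost without PBS 1, PBS 3 or PBS 4 or without any 1 IL-4 array (adjusted p = 0.058 to 0.11). Of 18 genes of BMP signaling, the pathway known to induce Id genes, 2 rose, 2 fell and 14 did not pass (median 0.11). These counts are not above the shares over all probe sets, 12% higher and 19.7% lower. Bmp2 and Bmp7 passed as higher and Bmpr1b as lower, but all 3 averaged under the olfactory receptor limit in both groups, so the sizes of their changes cannot be read exactly. The Bmp2 call was lost without PBS 1, without PBS 3 or without any 1 IL-4 array (adjusted p = 0.063 to 0.12). Acvr1, a BMP type I receptor above that limit, had a log2 difference of -0.47 (adjusted p = 0.038), a call lost without any 1 of PBS 1, PBS 3, PBS 4, IL-4 1, IL-4 2 and IL-4 4 (adjusted p = 0.068 to 0.11). Of 5 genes tied to SoxC factors in neurons, Tubb3, a tubulin of neurons, fell and the other 4 did not pass. Tubb3 had a log2 difference of -2.09 (adjusted p = 0.0074), at 9.17 to 9.29 on the IL-4 arrays and 9.78 to 12.77 on the PBS arrays. Without PBS 1 the log2 difference of Tubb3 was -1.61 (adjusted p = 0.00955).

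**Figure D5:**
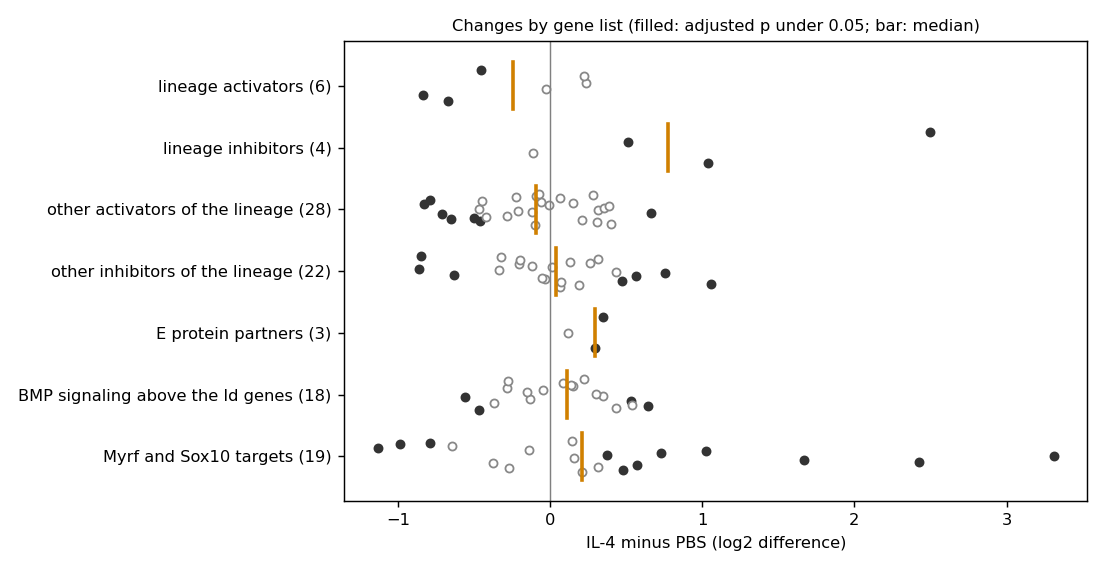
Log2 difference, IL-4 minus PBS, of every measured gene in 7 lists, with the number measured in brackets. Filled points have an adjusted p under 0.05, open points do not, and the orange bar is the list's median, 0.77 for the 4 inhibitors and -0.24 for the 6 activators. Lists of other regulators hold points on both sides of 0.

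The genes whose 8 values ran most like those of each factor were found by Pearson's r over 15036 other genes, and with 8 arrays many came close: 697 genes exceeded r = 0.9 with Myrf. The 2 closest were Tmem89 and Kazald1 for Myrf (r = 0.99 each), Drg1 and Tmc2 for Sox10 (0.99 each), Cnot11 and Snx22 for Nkx2-2 (0.99 each), and Ust and Eml2 for Nkx6-2 (0.99 each). They were Copg2 and Aspa for Olig1 (0.98 and 0.97), and SPATA45 and Ghsr for Olig2 (0.98 and 0.97). For the inhibitors they were Sec31a and Prcp for Sox4 (0.99 each), Prss58 and Gipc3 for Sox11 (0.98 each), Dbf4 and Itpr1 for Id2 (0.99 each) and Itgb1 and Trim67 for Id4 (0.96 each). Aspa is an enzyme of oligodendrocytes. Tmem89, Kazald1, Tmc2, Snx22, SPATA45 and Itpr1 averaged in both groups under the 95th percentile of the olfactory receptor genes, and Prss58 did so with PBS, so these matches lie at dim signals. These correlations include the change between the groups.

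Markers of other cells and of division were counted at the same threshold, where 12% of all probe sets rose and 19.7% fell. The counts of neuronal and OPC markers do not stand clear of those shares. All 10 factors averaged above the 95th percentile of 1057 olfactory receptor genes, a family taken here as a measure of dim signal. Of these 1057 genes, 155 rose and 121 fell at the same threshold, so a call by itself is not particular to brightly measured genes. Of 10 microglial markers, 5 rose and 2 fell (Cx3cr1, log2 difference -1.46, and Tmem119, -0.62), while Tmem119 and Itgam averaged in the dim range. The log2 of their summed signal was 15.44 to 15.57 with IL-4 and 13.80 to 15.37 with PBS, without overlap between the groups. Every such sum mainly follows its brightest genes, here C1qb at 14.89 to 15.08 with IL-4 and 12.49 to 13.98 with PBS. Of 8 astrocyte markers 3 rose and 2 fell, with summed signals of 14.07 to 14.31 with IL-4 and 13.26 to 13.83 with PBS, and Aldh1l1 in the dim range. Of 8 neuronal markers 0 rose and 2 fell (15.09 to 15.19 with IL-4 and 15.28 to 16.43 with PBS). Of 10 vessel and fibroblast markers 1 rose and 4 fell, 7 were in the dim range, and the sums overlapped (8.15 to 8.26 with IL-4 and 8.09 to 8.28 with PBS). Of 5 genes of dividing cells 4 rose and 0 fell, with sums of 13.47 to 13.65 with IL-4 and 11.53 to 12.54 with PBS. Of 6 OPC markers 1 rose and 0 fell, with sums of 18.60 to 18.66 with IL-4 and 18.17 to 18.75 with PBS. The OPC sum mainly follows Gpr17, which among the PBS arrays was lowest on PBS 1 (17.26) and highest on PBS 2 (18.48). C1ql1 ran the same way. Pdgfra ran the other way, at 15.07 on PBS 1 and 12.73 on PBS 2, as did Cspg4, Ptprz1 and Cacng4. The OPC sum therefore cannot be read as OPC content. Of 5 oligodendrocyte markers 3 rose and 0 fell (20.15 to 20.20 with IL-4 and 19.71 to 19.95 with PBS). Both sums were high on all arrays, although the oligodendrocyte marker Mal was at 4.99 on PBS 1. The part of these cells in the changes of the 10 factors was not tested.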

How the data were processed

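RNA of 8 OPC cultures was hybridised to Affymetrix Clariom S rat arrays. The authors performed image analysis in Affymetrix Expression Console and used Transcriptome Analysis Console 4.0. The deposited values are their log2 RMA signals per probe set, to 2 decimals, background corrected, normalized between arrays and summarized. Array medians lay between 6.13 and 6.16. Precision is limited by the number of arrays. All 8 columns were used. The array's probe table gave 15049 probe sets a single symbol and the other 8139 none. Its build (rn6) is not that of the promoter table.

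Differences were fitted by lmFit and eBayes of limma 3.58.1 (R 4.3.3), tested on simulated data. Pairs of relatives were tested in Python 3.11.15 with scipy 1.17.1. The 10 genes and all lists were chosen with earlier results of these data known. Named beside the 10 are, per list, up to 4 genes passing the test, by size of change, or else the 2 with the smallest p, and for each factor the 2 genes most like it. The motifs, Sox8, Sox12, Id3, Tcf3, Pdgfra and the other OPC markers named, Mbp, Opalin, Rffl, Tmem98, C1qb and Cx3cr1 were chosen after values were seen. Alternatives were other scalings, filters, variance models, weights, a replicate block, arrays left out or averaged, a t-test and the dimmest probe set per gene. Leaving out each array for the list genes was added after seeing the data.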

Additional observations from a re-analysis of the deposited data

Results flagged for a closer look

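Of 58 groups of 4 arrays examined for 29 of the genes described, 4 held 1 array far from its 3 companions, where chance gives about 1 in 20. Olig1 was 15.99 on IL-4 3, against 16.19 to 16.22 on the other IL-4 arrays. Id2 was 10.18 on IL-4 2, against 9.76 to 9.82 on the other IL-4 arrays. Egr1 was 10.31 on PBS 4, against 11.64 to 11.90 on the other PBS arrays. Bmp2 was 4.71 on IL-4 3, against 4.21 to 4.29 on the other IL-4 arrays, at a dim signal.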

How the results depend on the processing

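Sox4 kept its call in all 18 alternatives, Sox10 in 15, and Myrf, Nkx2-2, Sox11 and Id2 in all but 1. That one averaged the 4 IL-4 arrays to a single sample assumed to vary like the PBS arrays: limma then called 1 of the 10 genes risen (Sox4) and 0 fallen, with 2 higher and 2 lower at an unadjusted p under 0.05, and 1 changed more than 2-fold. Adjusted p was then 0.27 for Myrf, 0.20 for Nkx2-2, 0.34 for Sox11 and 0.26 for Id2, and over all probe sets 56 rose and 16 fell in place of 2776 and 4563. Leaving out 1 array gave 1 to 2 genes changed more than 2-fold. A t-test, which the methods name for comparing 2 groups but not for the arrays, called the same 6 genes. Every gene has 1 probe set, so the dimmest was also the brightest. With the replicate block 3 genes rose and 3 fell, and no call on the 10 genes changed. The labels do not say whether the numbers pair the samples. Correlations of arrays in their deviations from the group means lay between -0.018 and 0.0059 for same-numbered arrays. For differently numbered arrays they lay between -0.038 and 0.052. With so few arrays these values cannot settle whether same-numbered cultures shared a preparation. The 3 pairs of relatives that passed kept their direction without any 1 array, with differences of -0.99 to -0.70 for Nkx2-2 and Nkx6-2, 1.80 to 2.15 for Sox4 and Sox11, and 1.01 to 1.30 for Id2 and Id4, as values with no test.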
